A study of Mus musculus with 23 samples.

Results

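The lysosome is the acidic compartment in which microglia break down what they have engulfed. A set of 47 genes of this compartment was followed in retinal microglia: 17 genes of the proton pump that acidifies it, 5 proteins of its membrane, 3 ion channel or transporter genes, 3 transcription factors and 19 hydrolases and their activators. The members were taken by symbol from a written list, in which the cathepsins were left out, and all 47 were among the 35825 genes with a value and among the 17102 genes that passed the filter on low values (10 or more normalized counts in 3 or more of the 23 libraries). RNA was sequenced from live, single GFP+ cells sorted from mouse retinas. All mice carried the CX3CR1-GFP allele, which drives GFP from the locus of the microglial receptor Cx3cr1 and also marks other Cx3cr1-expressing macrophages. Mice with intact Spp1 (CX3CR1-GFP, here WT) were set against mice of the global Spp1 knockout strain (Spp1 KO; CX3CR1-GFP, here KO). Each genotype was studied in control retinas, whose treatment the labels give as none (here naïve), at 4 weeks after elevation of the intraocular pressure (IOP) by microbeads injected into the anterior chamber, and at day 7 after optic nerve crush (ONC). The methods of the microbead model describe controls injected with saline, and whether the control libraries came from such eyes is not given in the sources used here. There were 4 libraries in each group except WT ONC, which had 3. The age of the mice was not given in the sources used here. The methods describe pooling of retinas over several mice for analyses of sorted cells, while a figure legend for these expression data gives 4 mice. Whether a library stands for a pool or for a single mouse is thus not settled. A p-value measures the spread between libraries.

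The vacuolar ATPase pumps protons into the lysosome through a membrane-bound V0 sector, driven by a V1 sector that splits ATP in the cytosol. The acid pH activates hydrolases that take apart glycans, sphingolipids and proteins, and inherited loss of many of them causes storage of their substrates in microglia and neurons. Heavily glycosylated membrane proteins such as LAMP1 and LAMP2 line the compartment. The factors TFEB, TFE3 and MITF move to the nucleus when lysosomes are stressed and bind E-box sequences with the core CACGTG in front of many lysosomal genes.

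Because that core is a known feature of this gene class, promoters were read from RefSeq (GRCm38.p6) as 250 bases before to 50 bases after each gene's start. Windows were found for 40 of the 47 members. The letters CACGTG, which read alike on both strands, were present in 13 of the 40 (32.5%). They were present in 10.9% of the 12429 tested genes with a window and in 8.09% of all 27025 genes with one. The longer palindrome TCACGTGA, which contains the core, was present in 5 members (12.5%), in 1.85% of tested genes and in 1.12% of all genes. Another 58 lysosomal genes, used below for comparison, gave 48 genes with a window, of which 11 (22.9%) held the core and 8 (16.7%) the longer form. A match describes letters in a window and not a bound site. By role, the core lay in 3 of 5 V0 genes, 1 of 4 V1 genes, 5 of 11 glycan hydrolases, 2 of 3 channel and transporter genes, 1 of 5 membrane protein genes (Lamp1, with 4 copies) and 1 of 3 protein and thioester hydrolases. It lay in 0 of 4 sphingolipid genes and in 0 of 3 transcription factor genes.

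The stretches around the core are shown for 8 of the 13 members that hold it, to set both that were called lower in a comparison (Sgsh and Atp6v1a) beside 6 that were called higher. Mcoln1, Atp6v0e, Arsa, Atp6v0d1 and Clcn7 also hold the core and are not shown. All are written 5′ to 3′ on the gene's strand, with the core in capitals, or the longer form where present. Lamp1 lies at chr8:13159085-13159160 (+), Atp6v0b at chr4:117887330-117887380 (-), Glb1 at chr9:114401015-114401050 (+), Naglu at chr11:101070006-101070041 (+), Gaa at chr11:119267808-119267843 (+), Lgmn at chr12:102439121-102439156 (-), Sgsh at chr11:119355519-119355554 (-) and Atp6v1a at chr16:44139370-44139405 (-), all in GRCm38.p6.
Lamp1: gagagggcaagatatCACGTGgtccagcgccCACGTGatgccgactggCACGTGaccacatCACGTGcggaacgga
Atp6v0b: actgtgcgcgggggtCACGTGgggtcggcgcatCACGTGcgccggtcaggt
Glb1: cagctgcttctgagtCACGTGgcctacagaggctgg
Naglu: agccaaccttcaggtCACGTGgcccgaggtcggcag
Gaa: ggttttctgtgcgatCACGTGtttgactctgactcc
Lgmn: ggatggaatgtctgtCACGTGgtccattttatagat
Sgsh: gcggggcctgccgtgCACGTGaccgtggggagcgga
Atp6v1a: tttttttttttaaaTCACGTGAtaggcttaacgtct

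Libraries held 22180480 to 30296094 reads on genes. Values are normalized counts, that is, reads scaled by each library's size factor. A count of 0 allows up to 3 reads, which are worth 2.41 to 4.03 normalized counts (counting error only). Cx3cr1 was at 9417 to 67878 in 19 libraries and at 952 to 1233 in the 4 libraries labelled KO IOP. Comparisons of KO IOP with KO naïve or WT IOP, and the IOP interaction, thus also set apart libraries that differ in Cx3cr1. The library titles do not give the number of copies of the GFP allele. The part of this Cx3cr1 difference in the members' values was not tested. Spp1 was at 334 to 2772 in WT naïve and WT IOP libraries and at 14556 to 22906 in WT ONC libraries. In the libraries labelled KO it ranged from 6.8 to 811 outside ONC, and after ONC it was at 15 in replicate 3 and at 4750 to 6811 in replicates 1, 2 and 4. Every KO IOP library was below every WT IOP library and every KO ONC library below every WT ONC library, while the naïve groups overlapped. Spp1 reads were not absent from every library labelled KO, so these are called the libraries labelled KO or KO libraries.

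The sorted cells were checked against marker lists. All 14 genes of a microglial list were detected in every library, and together they held 2.93 to 3.60% of the counts in WT naïve, 1.90 to 3.07% in WT IOP, 2.91 to 3.82% in WT ONC, 3.19 to 3.65% in KO IOP and 3.54 to 4.09% in KO ONC libraries. In KO naïve libraries the share was 1.22, 1.54 and 1.69% in replicates 1, 2 and 4, and 3.46% in replicate 3. Transcripts of 14 rod photoreceptor genes moved the other way: 3.25, 3.47 and 3.86% in those 3 libraries, 1.23% in KO naïve replicate 3 and 0.534 to 2.89% elsewhere. The mean of the members was split in the same way. Their mean log2(normalized count + 1) was 11.81, 11.60 and 11.68 in KO naïve replicates 1, 2 and 4, against 12.23 in replicate 3 (as drawn in the plot of member level against marker share). Within WT IOP, replicates 1 and 4, with microglial shares of 1.90 and 2.08%, had member means of 11.75 and 11.64, against 12.32 and 12.06 in replicates 2 and 3 with 3.07 and 3.06%. The mean of the V1 sector of the proton pump did not share this split. It was 12.06 and 12.15 in WT IOP replicates 1 and 4 and 12.02 and 12.13 in replicates 2 and 3. In KO naïve replicates 1 to 4 it was 12.22, 12.10, 12.28 and 12.27. There the V0 mean (10.95, 10.35, 10.65 and 11.20) and the channel and transporter mean (11.38, 11.17, 10.95 and 10.18) were not split so either. Single V1 genes differed: KO naïve replicate 3 stood apart in Atp6v1c1 (6178, others 4747 to 4951) but not in Atp6v1a (7515, within the range of the others). Transcripts of 9 lens genes held 0.841 and 0.914% of the counts in WT IOP replicates 1 and 4, 0.176 and 0.118% in replicates 2 and 3, and at most 0.0112% in any other library. In bulk libraries, fewer microglia and less RNA per microglial cell cannot be told apart.

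**Figure D1:**
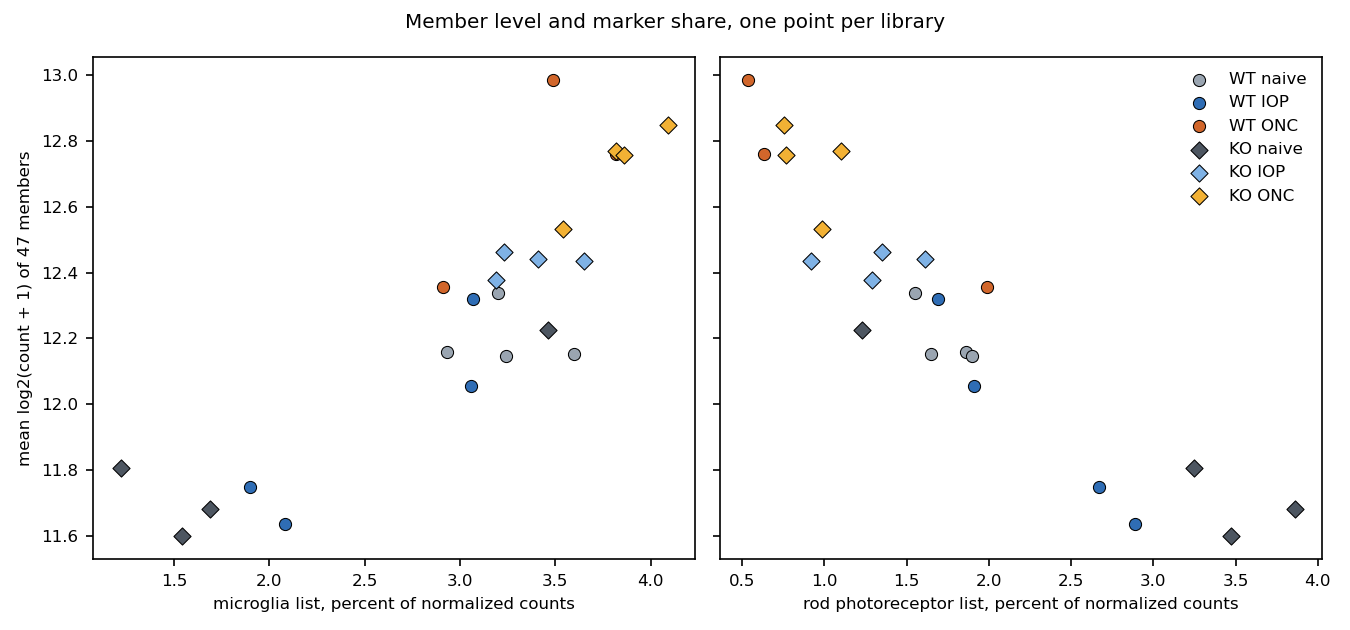
Mean log2(normalized count + 1) of the 47 members (vertical axis) against the percent of normalized counts held by the microglial list (left) and by the rod photoreceptor list (right), with 1 point per library and colours for the 6 groups. KO naïve replicates 1, 2 and 4 and WT IOP replicates 1 and 4 form the low end of the member level, at 11.60 to 11.81, where the microglial share is lowest and the rod share highest.

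Compared per kilobase of exon, the levels of the members span several orders of magnitude. Over all 23 libraries the highest mean levels were those of Lgmn, the asparaginyl endopeptidase legumain (31832 normalized counts per kb), Psap, the precursor of the saposins that present sphingolipids to their hydrolases (31155), Cd68, the macrophage sialomucin of the lysosomal membrane (19986), and Hexa, the alpha subunit of beta-hexosaminidase (17330). The lowest were those of Atp6v0d2, a pump subunit known from osteoclasts and macrophages (6.86), Galc, the galactosylceramidase (49.8), and Mitf (74.7). Atp6v0d2 was at 0 in 7 of 23 libraries, and its highest value was 77.7 in WT IOP replicate 2. Together the members held 1.28 to 2.76% of all normalized counts. The exons of 13 members overlap those of another gene, by over 10% of their exon bases for Arsb, Sgsh, Arsa, Hexa and Atp6v0b, and the protocol sources do not state that strand was used. Atp6v0c and Cd63 have pseudogenes under their names, so reads of these members may be split.

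A member or gene is called below when its adjusted p (limma on log2(normalized count + 1), Benjamini-Hochberg over all 17102 genes) was under 0.05 and its log2 difference was over 0.58 in size. In WT microglia, ONC raised 15 of the 47 members (31.9%, against 7.55% of all genes called higher) and lowered 1 (2.13%, against 10.5%). The median log2 difference was 0.47 over the members and -0.10 over all genes. In 20 members (42.6%) every WT ONC library lay above every WT naïve library, which held for 12.1% of all genes. By role, 5 of 5 membrane proteins were called (median 1.22), 2 of 7 V0 genes (0.45), 2 of 8 V1 genes (0.05), 3 higher and 1 lower of 11 glycan hydrolases (0.33), 0 of 5 sphingolipid genes (0.54) and 1 of 3 protein and thioester hydrolases (0.53).

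**Figure D2:**
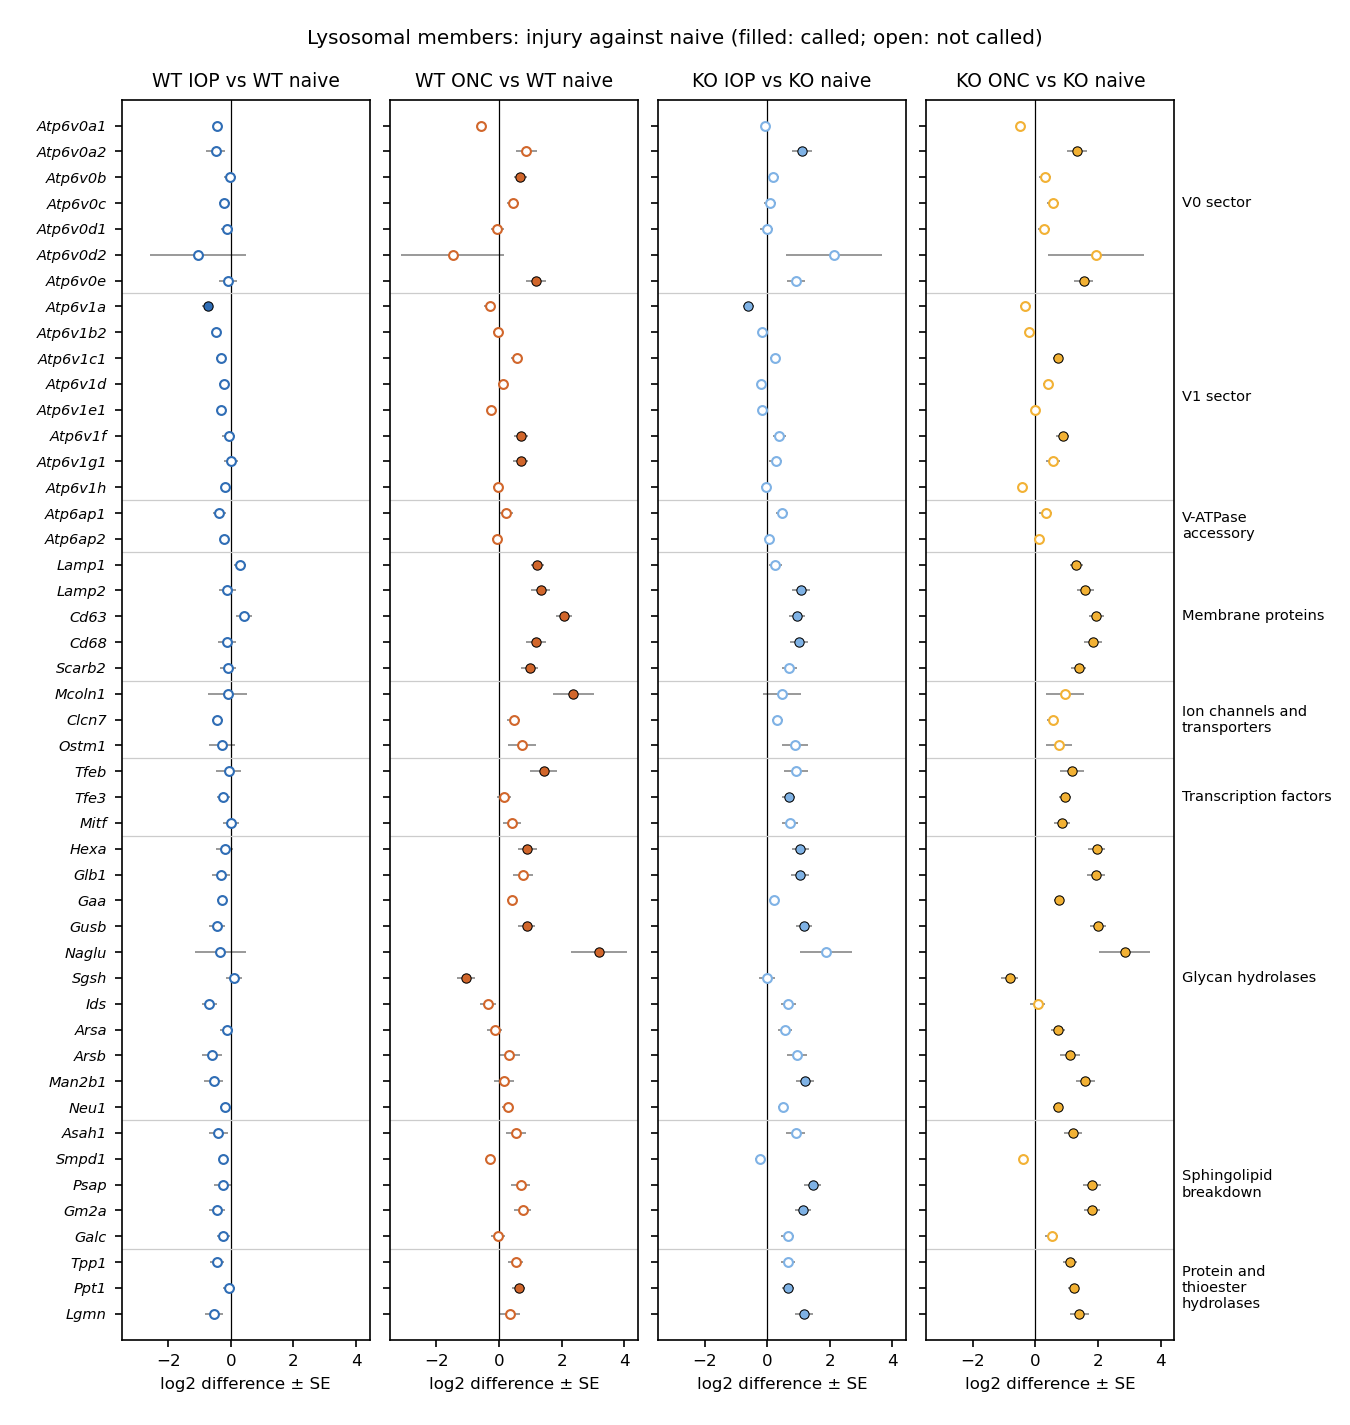
Log2 difference ± SE of each of the 47 members, ordered by role, after IOP elevation and after ONC against the naïve retina of the same genotype. Filled points were called (1, 16, 14 and 28 members from left to right). The membrane proteins stand to the right of 0 in both ONC panels, while V1 genes lie on both sides of 0, with 2 of 8 called higher in each.

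Among the membrane proteins, Cd63, a tetraspanin of late endosomes and lysosomes, was at 9662, 9303, 8177 and 10515 normalized counts in WT naïve and at 70854, 22641 and 37940 in WT ONC libraries. The groups did not overlap, and the log2 difference was 2.07 ± 0.27 (SE, adjusted p = 1.82e-05). Lamp1 was at 1591, 1526, 1631 and 1776 in WT naïve and at 4457, 2627 and 4685 in WT ONC libraries, again without overlap (1.22 ± 0.21, adjusted p = 0.000435). Lamp2, which also serves as receptor of chaperone-mediated autophagy, was at 16340 to 21934 in WT naïve libraries. It reached 75564, 29298 and 53378 in WT ONC libraries (1.33 ± 0.30, adjusted p = 0.00383). Cd68 rose by 1.17 ± 0.31 on the log2 scale and Scarb2, which carries glucocerebrosidase to the lysosome, by 0.98 ± 0.27 (adjusted p = 0.0119 and 0.0141). In each of these genes WT ONC replicate 2 was the lowest of the 3 ONC libraries. That library held 1.99% rod counts, against 0.534 and 0.635% in the other two, and the part of this difference in the result was not tested. Lamp1, Lamp2 and Cd63 were called in each of 13 alternative analyses and in each of 7 fits that left out 1 library.

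The other members that rose after ONC in WT microglia came from several roles. Mcoln1, the calcium channel through which lysosomes signal to TFEB, was at 217, 400, 539 and 1921 normalized counts in WT naïve libraries. It was at 2982, 2605 and 2963 in WT ONC libraries, all above the naïve ones (2.38 ± 0.66, adjusted p = 0.016). Tfeb itself was at 227, 270, 372 and 601 in WT naïve and at 1005, 695 and 1130 in WT ONC libraries (1.43 ± 0.43, adjusted p = 0.0237). Tfe3 and Mitf had log2 differences of 0.16 and 0.42 and were not called. Naglu, which removes N-acetylglucosamine from heparan sulfate, had the largest called difference of the set. It was at 294, 946, 2078 and 3718 in WT naïve and at 16211, 6762 and 12381 in WT ONC libraries (3.19 ± 0.89, adjusted p = 0.0161). Its naïve libraries alone spread from 294 to 3718, and the SE is wide.

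Sgsh, the sulfamidase that acts on the same heparan sulfate chains as Naglu, was the one member called lower. It was at 615, 771, 623 and 839 normalized counts in WT naïve and at 260, 467 and 320 in WT ONC libraries, so the groups did not overlap (-1.06 ± 0.28, adjusted p = 0.0129). The exons of Sgsh share 21.6% of their bases with Card14 on the opposite strand. Both Naglu and Sgsh have the core CACGTG in front of their start, as printed above. Among the 40 members with a promoter window, 5 of 13 with the core and 9 of 27 without it were called higher after ONC in WT microglia, and 1 and 0 lower.

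**Figure D3:**
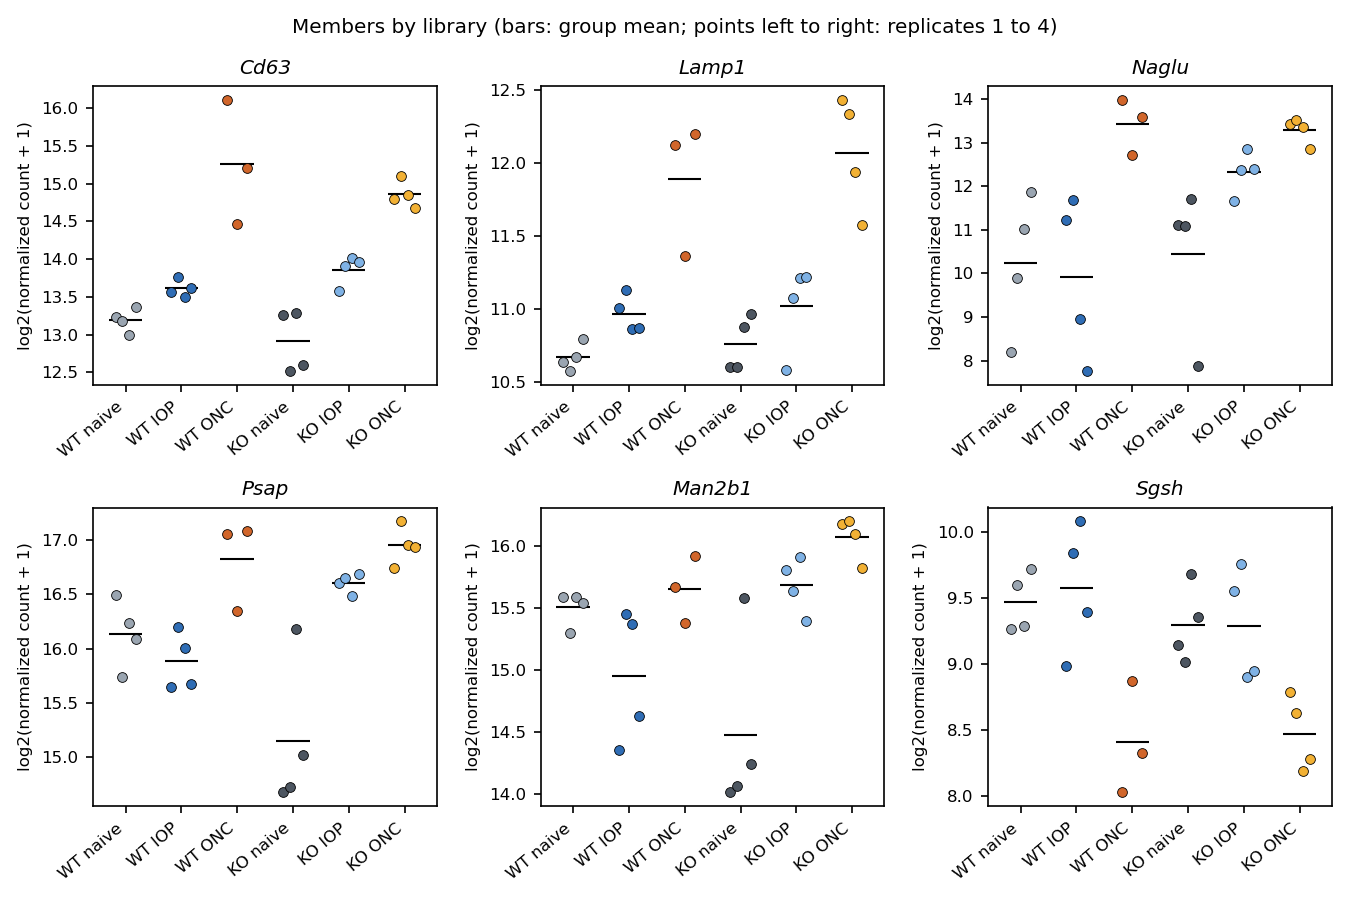
Log2(normalized count + 1) of Cd63, Lamp1, Naglu, Psap, Man2b1 and Sgsh in each of the 23 libraries, with 1 point per library and a bar at each group mean. Cd63 and Lamp1 are highest in both ONC groups, Sgsh is lowest there, and Psap and Man2b1 are low in 3 of 4 KO naïve libraries.

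Within the proton pump, the called members after ONC in WT microglia were Atp6v0b (0.68), Atp6v0e (1.19), Atp6v1f (0.71) and Atp6v1g1 (0.69). The other pump genes were not called. Of these, Atp6v0a2 (0.87) and Atp6v1c1 (0.57) lay above the naïve range in every ONC library, and Atp6v0c had a log2 difference of 0.45 with overlap. Atp6v1a, the ATP-binding subunit, had a log2 difference of -0.30, Atp6v1b2 of -0.05, Atp6v1h of -0.05 and Atp6v1e1 of -0.26. Atp6v0a1 had an adjusted p of 0.00797 at a log2 difference of -0.57, just short of the threshold on size, with every ONC library (5482 to 6284) below every naïve one (8353 to 9364). Atp6v0e was at 2966, 3051, 2841 and 2752 in WT naïve and at 14110, 3216 and 6432 in WT ONC libraries. The groups did not overlap, but WT ONC replicate 2 was only just above the naïve range. The remaining called members were Hexa (0.90), Gusb, the beta-glucuronidase (0.88), and Ppt1, the palmitoyl-protein thioesterase (0.64). Without WT ONC replicate 1, 4 members were called, without replicate 3, 8, and without replicate 2, 24. Counts over all genes are not given here for these fits. With the mean of the rod list as a covariate, 5 members were called higher and 3 lower. Over all 17102 genes that fit called 1853, against 3093 without the covariate. With the microglial list instead, 10 members were called higher and 3 lower, with 2685 of 17102 genes called. Markers of border macrophages and monocytes, which the GFP gate can also take, moved in this comparison too: 8 of 8 were lower after ONC, 5 called (median -3.69), and their share went from 0.0677 to 0.146% in WT naïve to 0.00662 to 0.0254% in WT ONC libraries. The part of this shift in the members' result was not tested. The 15 higher and 1 lower became 9 and 2 with upper-quartile rescaling (3155 of 17141 genes called). They became 9 and 4 with quantile normalization (2688 of 17102 genes called).

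IOP elevation in WT microglia gave 1 called member. Atp6v1a fell by 0.74 on the log2 scale (SE 0.17, adjusted p = 0.0304), from 7412, 9875, 8050 and 7364 normalized counts in WT naïve to 4474, 4675, 5432 and 4875 in WT IOP libraries, without overlap. That is 2.13% of the members called lower, against 0.719% of all genes, and the count rested on single libraries: it was 0 in 7 of 8 fits that left out 1 library and 2 without WT IOP replicate 3. The log2 difference of 42 of the 47 members was below 0 (median -0.24, against -0.02 over all genes). The glycan hydrolases were lower in the WT IOP libraries with the lower microglial share. Their mean log2 value was 11.69 and 11.53 in WT IOP replicates 1 and 4 and 12.42 and 12.19 in replicates 2 and 3, whereas the V1 means given above overlapped. Hexa was at 16604 and 18537 in WT IOP replicates 1 and 4 and at 28458 and 28170 in replicates 2 and 3, while WT naïve libraries had 23203 to 29397. All 9 lens genes had higher values after IOP elevation in WT, 8 of them called (median 7.51), and the part of lens transcripts in the members' values was not tested. Of the 5 members with a difference above 0, Sgsh (0.11), Atp6v1g1 (0.01) and Mitf (0.002) were close to it. Cd63 was at 12110, 13912, 11612 and 12598 in WT IOP libraries, all above the WT naïve values, with a log2 difference of 0.42 ± 0.24 that was not called (adjusted p = 0.482), and Lamp1 lay above the naïve range in the same way (0.30 ± 0.20, adjusted p = 0.553).

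In the libraries labelled KO, ONC raised 27 members (57.4%, against 12.7% of all genes) and lowered 1 (2.13%, against 11.0%). The median log2 difference was 0.87 over the members and -0.13 over all genes, and in 30 members (63.8%) every KO ONC library lay above every KO naïve library, against 13.4% of all genes. All 5 membrane proteins were called, with a median of 1.59. So were 3 of 3 transcription factors (Tfeb 1.17, Tfe3 0.94, Mitf 0.84), 9 of 11 glycan hydrolases, 3 of 5 sphingolipid genes and 3 of 3 protein and thioester hydrolases. The proton pump had 2 of 7 V0 genes (Atp6v0a2 1.33, Atp6v0e 1.54) and 2 of 8 V1 genes (Atp6v1c1 0.71, Atp6v1f 0.87). The log2 differences of the other membrane proteins were 1.31 for Lamp1, 1.59 for Lamp2, 1.85 for Cd68 and 1.38 for Scarb2. Those of the hydrolases and activators not given below were 0.77 for Gaa, 0.73 for Arsa and 1.11 for Arsb, which remove sulfate groups, 0.72 for the sialidase Neu1, 1.60 for Man2b1, 1.20 for the acid ceramidase Asah1, 1.80 for Psap, 1.81 for Gm2a, 1.09 for Tpp1, 1.22 for Ppt1 and 1.40 for Lgmn.

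Gusb was at 4058, 3946, 9593 and 4523 normalized counts in KO naïve and at 19312, 22529, 22680 and 17765 in KO ONC libraries. The groups did not overlap, although KO naïve replicate 3 stood well above the other 3 (2.00 ± 0.26, adjusted p = 1.99e-05). Hexa showed the same layout, with 12113, 11857, 34939 and 12991 in KO naïve and 53025 to 68806 in KO ONC libraries (1.95 ± 0.27, adjusted p = 4.65e-05). So did Glb1, the acid beta-galactosidase, with 1353, 1253, 3711 and 1572 against 6038 to 7795 (1.94 ± 0.29, adjusted p = 8.98e-05). Cd63 rose from 9804, 5863, 9943 and 6204 to 28494, 35173, 29614 and 26076 (1.94 ± 0.24, adjusted p = 1.63e-05). Its KO naïve replicate 3 was not set apart from replicate 1. Naglu was at 2225, 2191, 3333 and 234 in KO naïve and at 7425 to 11754 in KO ONC libraries (2.85 ± 0.82, adjusted p = 0.015). Sgsh fell again, from 563, 517, 820 and 654 to 442, 395, 292 and 310 (-0.82 ± 0.26, adjusted p = 0.025). The fall was called in both genotypes, each against naïve libraries of its own, but in the KO libraries it was lost in 4 of 8 fits that left out 1 library.

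Fits that left out any 1 of the 8 libraries called 23 to 29 members, and their counts over all genes are not given here. In a fit that kept replicate 3 alone as the KO naïve library, assumed to vary like the other groups, 0 members were called after ONC, 11 had an unadjusted p under 0.05, and the median log2 difference was 0.49. Over all genes that fit called 83 of 16830, against 4043 of 17102 with all libraries. With the mean of the microglial list as a covariate, 1 member was called higher and 2 lower (median 0.17), with 160 of all genes called, and with the rod list 10 and 1, with 487. In these data 14 of 14 microglial genes had a higher mean log2 value in KO ONC than in KO naïve libraries (11 called higher) and 14 of 14 rod genes a lower one (12 called lower). The part of this shift in the members' result was not tested beyond these fits. With quantile normalization 22 members were called higher and 6 lower, with 3950 of 17102 genes called.

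After IOP elevation in the libraries labelled KO, 13 members were called higher (27.7%, against 5.06% of all genes) and 1 lower (2.13%, against 2.81%). In 11 members (23.4%) the groups did not overlap, all KO IOP libraries being higher, against 5.43% of all genes. Hydrolases and activators made up 8 of the 13: Hexa (1.06), Glb1 (1.04), Gusb (1.18), Ppt1 (0.66), Man2b1, Psap, Gm2a and Lgmn. The others were Lamp2 (1.08), Cd63 (0.95), Cd68 (1.01), Tfe3 (0.69) and Atp6v0a2 (1.11). The one called lower was Atp6v1a, with 9185, 7161, 7515 and 9433 normalized counts in KO naïve and 7291, 5275, 5266 and 4235 in KO IOP libraries. These groups overlapped (-0.61 ± 0.17, adjusted p = 0.0369). The call was lost in 6 of 8 fits that left out 1 library. Atp6v1a was also the member called lower after IOP elevation in WT, where 7 of 8 such fits lost the call.

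Psap had the smallest adjusted p of the set after IOP elevation. It was at 26159, 27077, 74383 and 33197 in KO naïve and at 99651, 102671, 91501 and 105423 in KO IOP libraries (1.46 ± 0.28, adjusted p = 0.00832). Man2b1, the acid alpha-mannosidase, was at 16512, 17128, 48996 and 19383 in KO naïve and at 57172, 50840, 61350 and 42945 in KO IOP libraries (1.21 ± 0.29, adjusted p = 0.0216). Here the groups overlapped, because KO naïve replicate 3 was above KO IOP replicate 4. Lgmn was at 26385, 28333, 74018 and 29097 in KO naïve and at 75846 to 90564 in KO IOP libraries, which left a narrow gap to replicate 3 (1.17 ± 0.29, adjusted p = 0.0242). Gm2a, the activator that lifts the ganglioside GM2 for hexosaminidase, rose by 1.14 ± 0.26 (adjusted p = 0.0187). Its KO naïve libraries were at 5703, 5033, 12591 and 5436, and its KO IOP libraries at 14602 to 14901.

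The 14 calls were 0 without KO naïve replicates 1, 2 and 4, 0 with either marker list as a covariate, 0 in a fit of the KO naïve and KO IOP libraries alone (28 members with an unadjusted p under 0.05), and 5 in edgeR on recovered reads. Calls over all genes fell as well, from 1347 of 17102 to 10 of 16830 without the 3 libraries, 3 and 4 of 17102 with the microglial and the rod list, 4 of 15935 in the groups alone and 559 in edgeR, so few genes of any kind were called in the fits that called 0 members. The calls among members were 1 without any single one of KO naïve replicates 1, 2 and 4, and 23 without KO naïve replicate 3. They were 3, 5, 8 and 8 without KO IOP replicates 3, 2, 1 and 4. For these fits without 1 library, counts over all genes are not given here. With replicate 3 as the only KO naïve library, the median log2 difference of the members was 0.10, against 0.66 with all 4. Between the same groups, 13 of 14 microglial genes were higher in KO IOP than in KO naïve libraries (10 called higher, median 1.175). All 14 rod genes were lower (3 called, median -0.978). The part of this shift in the members' result was not tested beyond these fits.

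**Figure D4:**
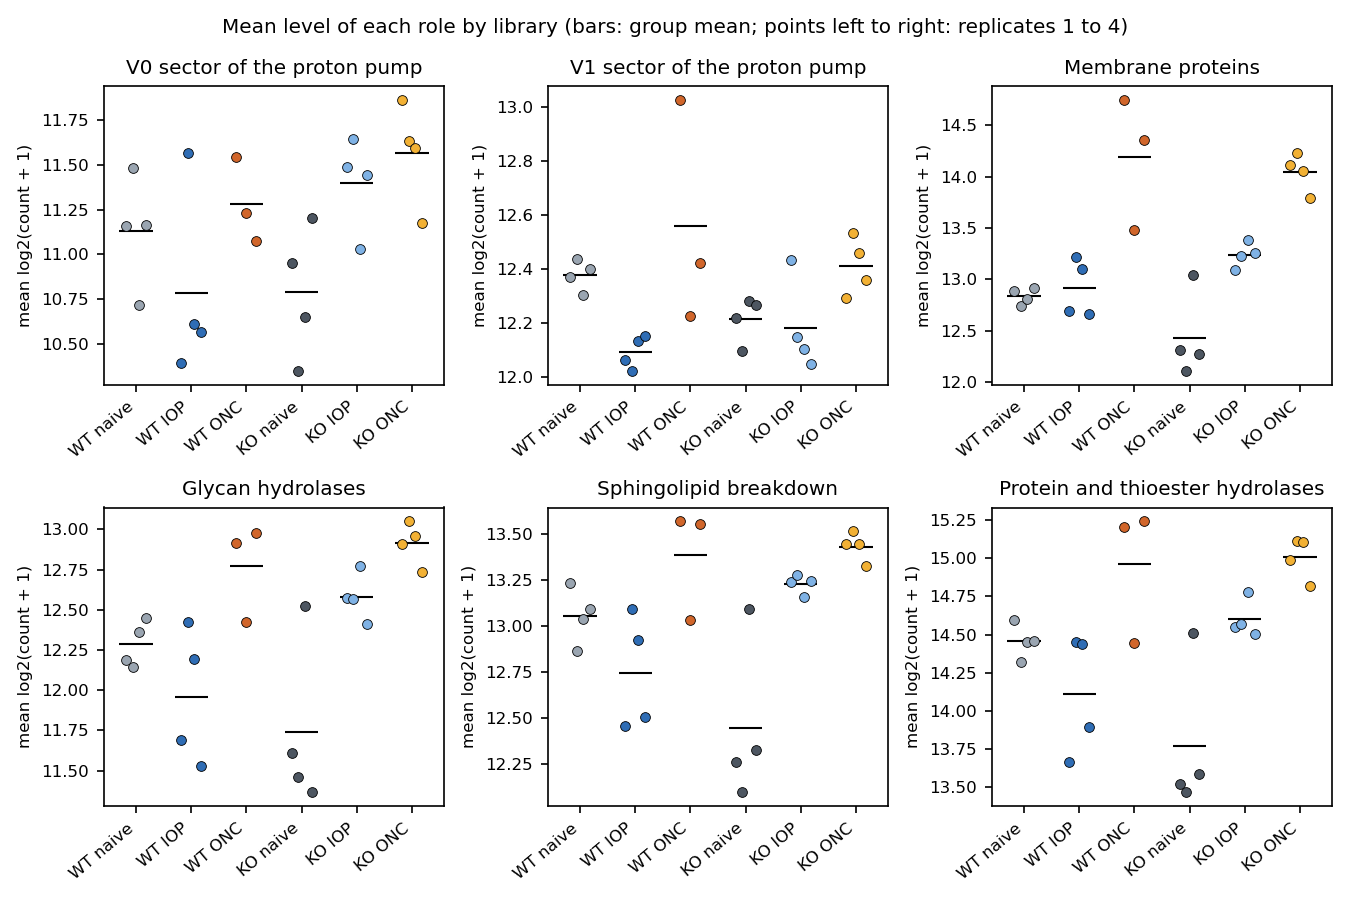
Mean log2(normalized count + 1) over the members of 6 roles in each library, with 1 point per library and a bar at each group mean. Membrane proteins are highest in the 2 ONC groups. The hydrolase panels show KO naïve replicate 3 apart from the other 3 KO naïve libraries (14.51 against 13.46 to 13.59 for protein and thioester hydrolases).

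Direct comparison of the genotypes called 0 members in the naïve retina (0.409% of all genes were called), 0 after IOP elevation (2.11%) and 0 after ONC (0.0877%). In naïve retinas 17 members (36.2%) had an unadjusted p under 0.05 in limma, all with lower values in the libraries labelled KO, against 9.97% of all genes. The lowest adjusted p was that of Ids, the iduronate sulfatase, which was at 6854, 5401, 7428 and 6816 in WT naïve and at 2811, 2759, 5515 and 2677 in KO naïve libraries (-1.01 ± 0.24, adjusted p = 0.0562). The groups overlapped only through KO naïve replicate 3. Lgmn came next (-1.12 ± 0.29, adjusted p = 0.0712). Without that library 18 members were called, all lower, and the count over all genes is not given here for that fit. With it as the only KO naïve library, the median log2 difference of the members was 0.04, against -0.32 in the main fit. edgeR on recovered reads called 0 members in this comparison and DESeq2 called 4, all lower, with 26 and 536 of 17102 genes called. All 14 microglial genes were also lower in KO naïve than in WT naïve libraries (median -0.94, 1 called).

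After IOP elevation the direction was the opposite. There 19 members (40.4%) had an unadjusted p under 0.05 in limma, all higher in the libraries labelled KO, against 9.02% of all genes, and in 8 members (17.0%) every KO IOP library was above every WT IOP library, against 5.11%. Gaa, the acid alpha-glucosidase, was at 5457, 7960, 7242 and 6573 in WT IOP and at 10451, 8639, 11870 and 8382 in KO IOP libraries (0.53 ± 0.16, adjusted p = 0.0821). Clcn7, the chloride-proton exchanger of the lysosomal membrane, was at 2148, 3489, 4922 and 2816 against 5801, 4298, 4078 and 5454 (0.60 ± 0.18, adjusted p = 0.0836). Its groups overlapped. Without WT IOP replicates 1 and 4, 3 members had an unadjusted p under 0.05. Of the 14 microglial genes, 13 were higher in KO IOP than in WT IOP libraries (median over the list 0.63, 0 called higher). All 14 rod genes were lower (median -0.76, 1 called). With the microglial or the rod list as a covariate, 5 members had an unadjusted p under 0.05 in limma. All 9 lens genes were called lower in KO IOP than in WT IOP libraries (median -10.23), and their part in the members' result was not tested. edgeR and DESeq2 also called 0 members, with 250 and 940 of 17102 genes called. After ONC, 2 members had an unadjusted p under 0.05 in limma, 1 higher and 1 lower, against 1601 of 17102 genes. In edgeR there were 4 and in DESeq2 8, without a count over all genes here. The median log2 difference of the members was 0.002. With the microglial list as a covariate, 2 members were called, both lower in KO libraries, with 73 of 17102 genes called. Border macrophage and monocyte markers were higher in 8 of 8 cases in KO ONC than in WT ONC libraries (median 2.37, 1 called). In limma without a covariate, the lowest adjusted p after ONC were those of Ids (-0.58 ± 0.26, adjusted p = 0.492) and Gaa (0.39 ± 0.17, adjusted p = 0.498). Errors were wide for single genes, as in Naglu (-0.14 ± 0.89).

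Whether the response to injury differed between the genotypes was tested with the interaction, the change in KO minus the change in WT. For IOP elevation 12 members were called, all with a positive difference of change (25.5%, against 4.85% of all genes called in that direction). A positive value combines a change below 0 in WT with one above 0 in KO for these members. These were Atp6v0a2, Tfe3, the glycan hydrolases Hexa, Glb1, Gusb, Ids, Arsb and Man2b1, the sphingolipid activators Psap and Gm2a, and the proteases Tpp1 and Lgmn. The largest log2 differences of change were those of Man2b1 (1.76 ± 0.41, adjusted p = 0.0146), Psap (1.71 ± 0.39, adjusted p = 0.0137) and Lgmn (1.71 ± 0.41, adjusted p = 0.0174). In Man2b1 the change was -0.55 in WT and 1.21 in KO, in Psap -0.26 and 1.46, and in Lgmn -0.54 and 1.17. None of the 5 membrane proteins was called, and Lamp1 had an interaction of -0.04 ± 0.28.

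**Figure D5:**
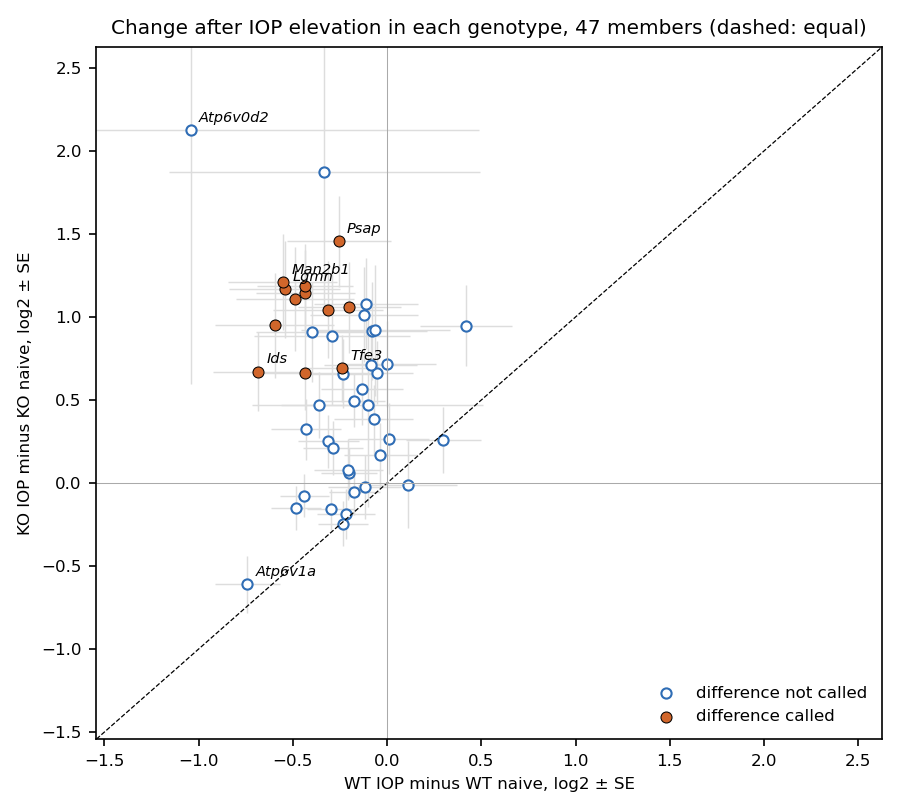
Log2 change ± SE after IOP elevation in WT (horizontal axis) and in KO libraries (vertical axis) for the 47 members, with a dashed line where both are equal. The 12 members with a called interaction (filled) lie left of 0 in WT and at 0.66 or more in KO. The 2 axes share no library.

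The interaction contains both groups with uneven marker shares. It was 0 of 47 without KO naïve replicates 1, 2 and 4 (0 members at an unadjusted p under 0.05), 0 without WT IOP replicates 1 and 4 (12 members), 0 with the rod or the microglial list as a covariate, 6 in edgeR and 12 in DESeq2 on recovered reads. Over all genes 1496 of 17102 had a called interaction, 47 of 16830 without the KO naïve libraries, 60 of 16951 without the WT IOP libraries, 140 and 100 with the rod and the microglial list. The median of the members was 0.31 without the KO naïve libraries and 0.52 without the WT IOP libraries, against 0.75. Leaving out single libraries gave 5 (without WT IOP replicate 1) to 22 (without KO naïve replicate 3) members, with counts over all genes not given here. All 9 lens genes had a called interaction in the other direction (median -8.98). Of the 14 microglial genes, 11 had a called interaction in the same direction, and 1, Cx3cr1, which was low in all KO IOP libraries, in the opposite one. For ONC 0 members were called in limma (0.0702% of all genes), edgeR or DESeq2 (3 and 223 of 17102 genes). In limma 10 members had an unadjusted p under 0.05, all positive, against 1404 positive of 17102 genes. In edgeR and DESeq2 there were 8 and 9, without a count over all genes here. The lowest adjusted p in limma were those of Man2b1 (1.45 ± 0.42, adjusted p = 0.17) and Gusb (1.12 ± 0.38, adjusted p = 0.222). Without KO naïve replicate 3, 7 were called, and the count over all genes is not given here for that fit.

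The 58 tested genes of the wider lysosomal list (mannose-6-phosphate pathway, other hydrolases, cholesterol and ion transport, further pump subunits) were counted in the same way. After ONC 19 were called higher and 3 lower in WT (7.55% and 10.5% of all genes), and 31 and 5 in KO libraries (12.7% and 11.0%). Their median log2 differences were 0.54 in WT and 0.89 in KO libraries, against 0.47 and 0.87 over the members. After IOP elevation 1 was called higher and 0 lower in WT (144 and 123 of 17102 genes), and 13 and 2 in KO libraries (866 and 481). Here the medians were -0.14 in WT and 0.66 in KO libraries, against -0.24 and 0.66 over the members. The rises with the smallest adjusted p after ONC in WT were those of Gnptab, which makes the mannose-6-phosphate tag (2.89, adjusted p = 4.41e-05), Gla, the alpha-galactosidase A (1.92, adjusted p = 0.000382), Pld3 (0.99, adjusted p = 0.000929) and Grn, the progranulin gene (1.68, adjusted p = 0.00169). The pump isoform Atp6v1g2, known from neurons, fell instead (-1.88, adjusted p = 4.53e-06). So did Atp6v0e2 (-1.12) and the factor Tfec (-4.73), which are named because they complete the count of 3. In KO libraries after ONC the smallest adjusted p was that of Pld3 (1.72, adjusted p = 2.29e-06), followed by Npc2, which hands cholesterol out of the lysosome (2.11, adjusted p = 6.91e-06). After IOP elevation in KO libraries Npc2 led (1.28, adjusted p = 0.0084). Lamtor5 was the one gene called after IOP elevation in WT (1.08, adjusted p = 0.0447). The interaction with IOP elevation had 11 called higher and 1 lower (829 and 667 of 17102 genes), led by Pld3 (1.26, adjusted p = 0.0067) and Npc2 (1.65, adjusted p = 0.00897). Between the genotypes after IOP elevation, 1 gene of the list was called higher and 1 lower in KO libraries (80 and 280 of 17102 genes). The higher one was Pld3 (0.78, adjusted p = 0.0216), and the lower one is not named here. Comparisons with the same naïve libraries are not independent of each other: both WT injuries share the WT naïve libraries, both KO injuries the KO naïve ones, and the interactions share all of these.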

How the data were processed

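The authors sequenced RNA of sorted GFP+ cells as paired 150-bp reads. Their methods name salmon with GRCm38, and the submitters' processing notes name STAR, DESeq2 and GRCm38, without versions. The deposited values are a signal per gene, reads divided by a size factor, and whole reads were recovered from them in all 23 libraries (tolerance 0.01).

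Linear models were fitted to log2(normalized count + 1) with limma 3.58.1 (R 4.3.3, eBayes with trend), with 6 groups and 9 comparisons. The study used DESeq2, but normalized values are not counts, so edgeR 4.0.16 and DESeq2 1.42.0 on recovered reads were alternatives. This scale understates changes of low genes. The fit was tested on simulated data. Exons are from GENCODE M21 (GRCm38). The members and lists were chosen with earlier results of these data known. The wider lysosomal list had 61 symbols, of which 60 were found and 58 tested. Named genes are members called in any comparison, the 2 lowest p where none was, Tfeb, Tfe3, Mitf, Lamp1, Lamp2, Cd63, Cd68 and Atp6v0d2, the extremes per kb, and up to 5 called genes of the wider list. Atp6v0a1, Atp6v0c, Atp6v1b2, Atp6v1e1, Atp6v1h, Atp6v0e2 in WT ONC and Tfec in WT ONC were named after their values were seen. Other pseudocounts (0.5 and 5), filters, scalings, a replicate block, marker covariates and left-out libraries were tried. Plots used Python 3.11.15 and matplotlib 3.10.9.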

Additional observations from a re-analysis of the deposited data

Results flagged for a closer look

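Within groups of 4 libraries, 295 sets of values (each member, the mean of each role, the member mean and 2 marker shares) were searched for a library far from the other 3, and 23 were found. Chance gives about 1 in 20. Of the 23, 17 lay in KO naïve, 3 in WT naïve, 2 in KO IOP and 1 in WT IOP libraries. In KO naïve, replicate 3 was the far and highest library for 15 members: Atp6v1c1 (6178 normalized counts), Atp6ap1 (23185), Cd68 (22227), Scarb2 (4855), Hexa (34939), Glb1 (3711), Gusb (9593), Ids (5515), Arsb (13477), Man2b1 (48996), Asah1 (20444), Psap (74383), Gm2a (12591), Ppt1 (12541) and Lgmn (74018). The mean log2 value of the protein and thioester hydrolases was 14.51 there, against 13.46 to 13.59 in the other 3. In Hexa the others were at 11857 to 12991 and in Lgmn at 26385 to 29097. This library held a microglial share of 3.46% and a rod share of 1.23%, against 1.22 to 1.69% and 3.25 to 3.86% in the others, and the part of these shares in the values was not tested. Atp6v1h was instead lowest in KO naïve replicate 2 (2968).

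The remaining distant values were Atp6v0d2 in WT IOP replicate 2 (77.7, others 0 to 0.9), Atp6v1b2 in KO IOP replicate 1 (16190), Lgmn in KO IOP replicate 3 (90564), Atp6ap1 in WT naïve replicate 2 (18846, the lowest), Gusb in WT naïve replicate 1 (11572) and the member mean in WT naïve replicate 4 (12.34, others 12.15 to 12.16).

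The change after IOP elevation differed between the genotypes in 12 members by the interaction term. The log2 difference of change was 1.60 for Atp6v0a2, 0.93 for Tfe3, 1.26 for Hexa, 1.36 for Glb1, 1.62 for Gusb, 1.36 for Ids, 1.55 for Arsb, 1.76 for Man2b1, 1.71 for Psap, 1.58 for Gm2a, 1.10 for Tpp1 and 1.71 for Lgmn. Without KO naïve replicates 1, 2 and 4, 0 of the 12 were called, in a fit that called 47 of 16830 genes against 1496 of 17102, and the median over all members was 0.31 against 0.75.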

How the results depend on the processing

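The number of members called was 1 after IOP elevation and 16 after ONC in WT, 14 and 28 in KO libraries, 0 between the genotypes, 12 for the interaction with IOP elevation and 0 for that with ONC. Without the filter on low values it was 8 for KO IOP and 7 for the IOP interaction, and with a mean of at least 50 it was 1 between the naïve groups. Quantile normalization gave 0 for WT IOP and 4 between the naïve groups. The KO IOP count was 0 in the groups compared alone. The rod list as a covariate gave 8 for WT ONC, 0 for KO IOP, 11 for KO ONC, 1 between the naïve groups and 0 for the IOP interaction. Over all 17102 genes it gave 1853, 4, 487, 49 and 140 in the same order. edgeR gave 5 for KO IOP (559 of 17102 genes) and 6 for the IOP interaction (1215). DESeq2 gave 4 between the naïve groups (536). The cause of these differences was not tested. Upper-quartile rescaling moved the median of all genes after ONC in WT from -0.10 to -0.21, and the median of the members was then 0.35. With a replicate block the count was 1 between the naïve groups and within 1.5 times elsewhere. Libraries with the same number did not deviate together (correlations from -0.253 to 0.153), so the numbers were not taken as pairs.

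3 alternatives were chosen after seeing the data. The microglial list without Cx3cr1 as a covariate gave 0 for KO IOP, 3 for KO ONC, 2 between the ONC groups and 0 for the IOP interaction. Over all 17102 genes it called 3, 160, 73 and 100 in the same order. The 2 between the ONC groups were both lower in KO libraries. For WT ONC it gave 13, of which 10 were higher and 3 lower, with 2685 genes called. Leaving out KO naïve replicates 1, 2 and 4 gave 0 for KO IOP, KO ONC and the IOP interaction, with 1 KO naïve library left and 10, 83 and 47 of 16830 genes called. Leaving out WT IOP replicates 1 and 4 gave 0 for WT IOP and the IOP interaction. Leaving out 1 library gave 0 to 2 for WT IOP, 4 to 24 for WT ONC, 1 to 23 for KO IOP, 23 to 29 for KO ONC, 0 to 18 between the naïve groups, 0 to 1 between the IOP groups, 0 between the ONC groups, 5 to 22 for the IOP interaction and 0 to 7 for the ONC interaction. These are counts of members, and counts over all genes are not given here for fits without 1 library.

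With the microglial covariate the sign of the log2 difference turned after IOP elevation in KO libraries for Cd68 (-0.158), Tfe3 (-0.000219), Glb1 (-0.0363), Ppt1 (-0.0419) and Lgmn (-0.00369). It turned after ONC in KO libraries for Atp6v0a2 (-0.0678), Arsa (-0.0863), Arsb (-0.476), Asah1 (-0.352) and Lgmn (-0.0797), and in the IOP interaction for Tfe3 (-0.0155), Hexa (-0.185), Glb1 (-0.1245), Arsb (-0.166) and Tpp1 (-0.00353). Without KO naïve replicates 1, 2 and 4 it turned for Hexa (-0.0699) and Glb1 (-0.0205) after IOP elevation and for Arsb (-0.0418) after ONC. Each of these is smaller in size than 0.58, so none was called. Over the fits of named members under alternatives, 1342 kept their direction and call, 451 kept their direction but lost the call, 13 gained it and 18 turned.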
